A study of Mus musculus with 5 samples.

Results

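Transcripts of 35 genes that proliferating cells use were followed across the cell classes of the mouse mammary gland. The genes were taken by gene symbol from the 32285 genes of each count table, and every one was found. By their known roles, 19 belong to G2 and mitosis (Mki67, Top2a, Cdk1, Ccna2, Ccnb1, Ccnb2, Birc5, Ube2c, Tpx2, Nusap1, Aurka, Aurkb, Plk1, Cenpf, Cenpa, Prc1, Pbk, Hmmr and Cdca3). Another 13 belong to S phase and DNA replication (Ccne1, Ccne2, Mcm2 to Mcm7, Pcna, Tyms, Rrm1, Rrm2 and Pclaf). The last 3 are the chromatin proteins Hmgb2 and Smc2 and the tubulin-binding protein Stmn1, whose transcripts are also found in cells that do not divide.

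The gland was profiled by droplet single-cell RNA sequencing (10x Genomics) in 5 libraries, from glands of what the submitters' design text counts as 5 mice. The labels do not tie each library to 1 mouse. Libraries KO1, KO2 and KO3 are labelled Frmd3 knockout and WT1 and WT2 are labelled wild type. The labels give no strain, age, sex, stage of the gland, knockout allele or batch, and whole mammary tissue is the only source named. Barcodes with fewer than 500 genes, or with over 15% of UMIs (unique molecular identifiers, counted molecules) from mitochondrial genes, were dropped, which left 10366 cells in KO1, 4649 in KO2, 2279 in KO3, 5061 in WT1 and 6233 in WT2.

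A dividing cell copies its DNA in S phase and separates the copies in mitosis. Transcription follows these phases in waves. The S phase wave, driven by E2F factors at the end of G1, holds the cyclin E genes, the MCM helicase that opens DNA at origins, the sliding clamp Pcna with its partner Pclaf, and the enzymes Rrm1, Rrm2 and Tyms that make nucleotides. The later wave, under the MuvB complex with B-MYB and FOXM1, holds cyclins A and B with their kinase Cdk1, and the genes of the spindle and kinetochore. In the mammary gland, division is found in luminal and basal epithelium with hormonal stages, in stroma, and in resident leukocytes.

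Promoter letters were read first, since the waves have known promoter elements. Windows of 300 bases, from 250 before to 50 after a gene's start in RefSeq (GRCm38.p6), were given for 28 of the 35 genes (the first listed window of each gene was used), and 7 had none (Pbk, Mcm4, Tpx2, Ccne2, Ccna2, Aurkb and Stmn1). Both strands were searched for TTTGAA, the core of the CHR element that MuvB binds, for the CCAAT box that NF-Y binds, and for 6 spellings of the E2F site (TTTGGCGC, TTTCCCGC, TTTCGCGC, TTTGGCGG, TTTCCCGG and TTTGCCGC). The TTTGAA letters were in 12 of 15 mitotic windows, 1 of 11 replication windows (Mcm2) and 2 of 2 windows of the third group, against 18.1% of 27025 genes. The CCAAT letters were in 13 of 15, 9 of 11 and 2 of 2, against 37.9%. The E2F spellings were in 2 of 15, 5 of 11 and 0 of 2, against 4.04%. These matches describe letters, not occupied sites.

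The stretches below hold these letters in 3 mitotic genes and 2 MCM genes whose transcripts the results turn on. Each is written 5′ to 3′ on the gene's own strand. Capitals mark TTTGAA (or TTCAAA) and CCAAT (or ATTGG) in the mitotic genes and the E2F spellings in the MCM genes, where overlapping matches run together.
Mki67, chr7:135716462-135716577, minus strand: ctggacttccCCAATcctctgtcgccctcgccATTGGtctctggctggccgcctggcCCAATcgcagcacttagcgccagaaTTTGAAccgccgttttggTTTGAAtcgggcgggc
Top2a, chr11:99024197-99024426, minus strand: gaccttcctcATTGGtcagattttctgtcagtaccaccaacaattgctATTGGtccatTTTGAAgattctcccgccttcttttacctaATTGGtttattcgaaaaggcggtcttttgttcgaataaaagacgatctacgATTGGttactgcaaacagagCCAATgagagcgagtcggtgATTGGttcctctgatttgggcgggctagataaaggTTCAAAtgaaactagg
Ccnb2, chr9:70421561-70421731, minus strand: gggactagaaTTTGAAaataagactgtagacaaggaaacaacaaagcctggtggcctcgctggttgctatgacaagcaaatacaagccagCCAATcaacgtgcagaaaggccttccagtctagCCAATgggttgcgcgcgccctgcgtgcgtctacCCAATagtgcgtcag
Mcm5, chr8:75109346-75109377, plus strand: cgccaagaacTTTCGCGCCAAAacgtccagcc
Mcm6, chr1:128359735-128359825, minus strand: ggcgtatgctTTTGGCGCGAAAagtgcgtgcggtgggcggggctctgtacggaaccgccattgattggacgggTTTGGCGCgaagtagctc
All 5 stretches lie before the gene's start.

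Several facts of the libraries touch the results. The median number of UMIs per kept cell was 4363 in KO1, 12987 in KO2, 6901 in KO3, 8700 in WT1 and 12470 in WT2, so replicate 2 was the deeper one in both genotypes. KO2 and KO3 had 13.2% and 18.5% of barcodes over the mitochondrial limit and the other libraries 3.80% to 6.39%. Pairs of libraries shared 1 to 21 barcodes. UMIs of Frmd3 itself were rare and did not separate the labels: 135 of 10366 kept cells held one in KO1, 100 of 4649 in KO2, 38 of 2279 in KO3, 65 of 5061 in WT1 and 105 of 6233 in WT2. These tags come from the 3′ end of the transcript, and the deleted part is not given, so they do not check the label.

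Cells were put in classes by marker genes that include none of the 35. Of 28588 kept cells, 24801 fell into a class and 3787 into none, and 978 of the classed cells lay within 10% of a limit of the rule. In all, 15 classes had at least 50 cells and are written as "-like". Luminal progenitor-like cells (milk-lineage luminal cells, marked by Elf5, Aldh1a3 and Kit) and hormone-sensing luminal-like cells (Esr1, Pgr and Prlr) carried Epcam UMIs in 96.4% to 100% of cells. Of fibroblast-like cells in KO1, 44.0% held an Epcam UMI and 19.6% a Ptprc UMI, so that class was less clean there.

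Among these classes, T cell-like cells had the highest mean level of mitotic transcripts over libraries. The 19 genes together reached 926 ± 566 CPM (UMIs of a gene per 1000000 UMIs of the class) in them (SD, n = 5 libraries, 426 to 1887), and 587 ± 187 CPM in NK cell-like cells (n = 5). Monocyte-like cells followed at 382 ± 184 CPM, macrophage-like cells at 342 ± 211, basal-like cells at 280 ± 311, hormone-sensing luminal-like cells at 237 ± 153, endothelial-like cells at 141 ± 209, luminal progenitor-like cells at 135 ± 108 and fibroblast-like cells at 81.9 ± 58.9 (n = 5 each). B cell-like and pericyte-like cells, in 4 libraries each, had 252 ± 95.5 and 174 ± 219 CPM. Dendritic cell-like and mast cell-like cells had enough cells in 1 library each, at 671 and 74.9 CPM. Part of this order rests on Cenpa: without it monocyte-like cells had 198 CPM, below macrophage-like (258), basal-like (255) and hormone-sensing luminal-like cells (219), and B cell-like cells had 86.0 CPM. Neutrophil-like cells, which are past division, had 64.9 ± 19.9 CPM (n = 4), and Schwann/glial-like cells 42.7 ± 6.36 CPM (n = 3). With Cenpa counted, neighbours among the classes in 5 libraries from NK cell-like to fibroblast-like cells overlapped in their library ranges, as did T cell-like and NK cell-like cells. In KO1 NK cell-like cells stood above T cell-like cells, at 789 against 610 CPM. A single cell held 30.3%, 43.8%, 35.5%, 22.6% and 10.4% of the mitotic UMIs of T cell-like cells in KO1, KO2, KO3, WT1 and WT2. Without the top cell of each class and library, T cell-like cells had 431, 524, 1430, 335 and 776 CPM. NK cell-like cells then had 562, 569, 297, 250 and 548 CPM. Levels here are sums over the cells of a class, so more dividing cells and more transcript in each cannot be told apart from a level alone.

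Of the 35 genes, 27 had their highest mean in T cell-like cells among the classes measured in at least 4 libraries. Cenpa, Mcm6 and Stmn1 were highest in NK cell-like cells, Pbk and Ccne1 in basal-like cells, Aurka in hormone-sensing luminal-like cells, Mcm7 in B cell-like cells and Rrm1 in pericyte-like cells. Mki67, the proliferation antigen that coats mitotic chromosomes, stood in T cell-like cells at 78.1 CPM in KO1, 86.4 in KO2, 406 in KO3, 77.4 in WT1 and 146 in WT2. KO3 was apart from the other 4 libraries there, with 54 T cell-like cells.

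**Figure D1:**
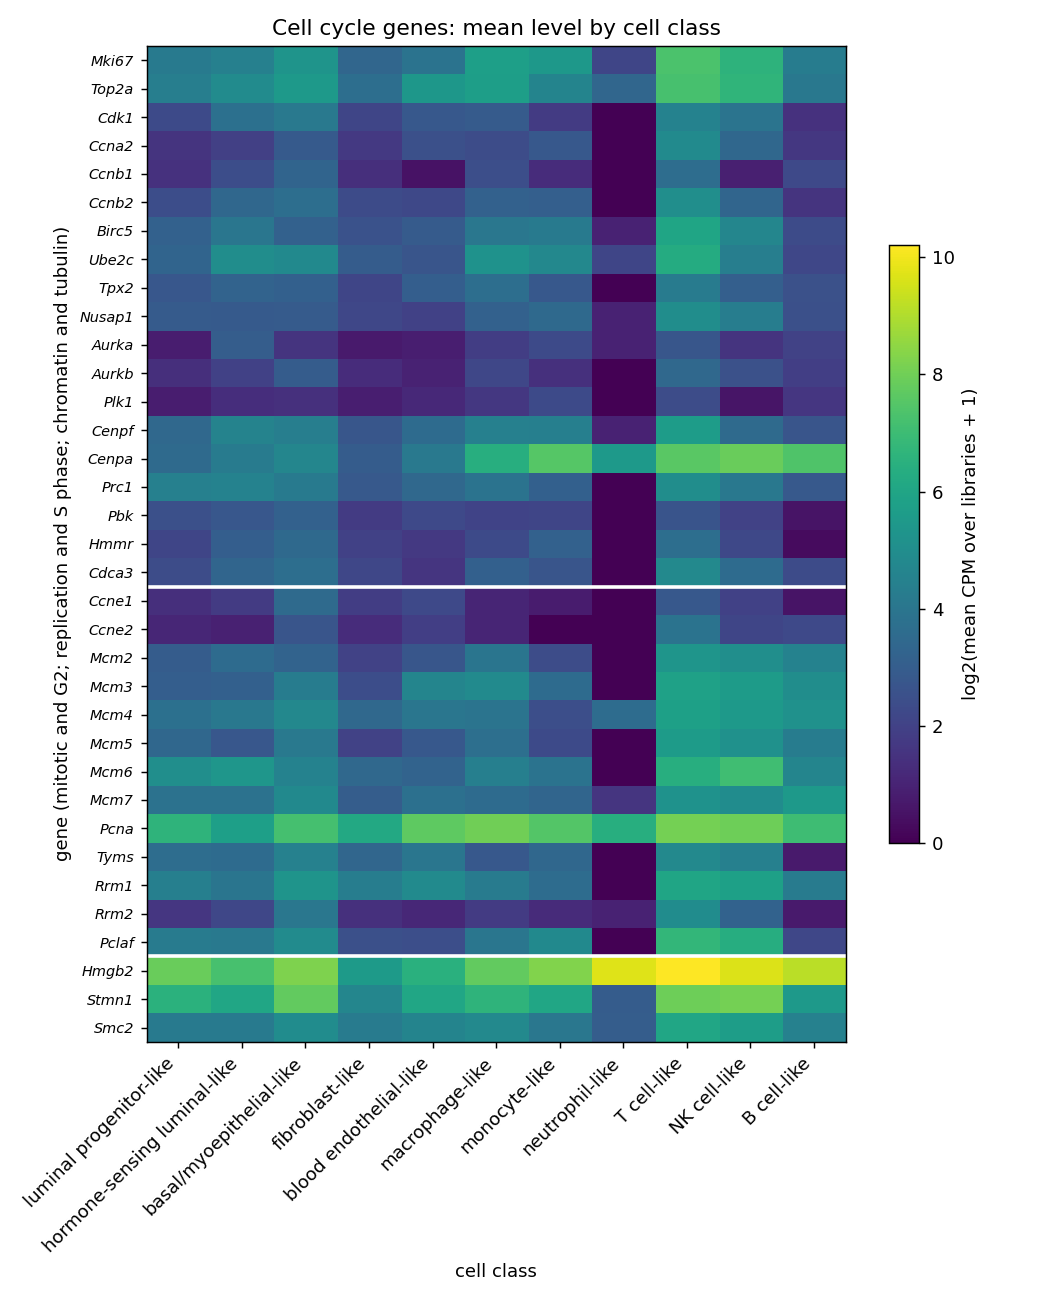
Mean level of each of the 35 genes (rows, grouped by role and separated by white lines) in 11 cell classes (columns), as log2(mean CPM over libraries + 1). The T cell-like and NK cell-like columns are bright for most genes, and Hmgb2 and Pcna are bright in classes whose mitotic genes are dark.

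Some genes of the list were not ordered by Mki67. Hmgb2, a DNA-bending protein, stood in neutrophil-like cells at 938 CPM in KO1, 925 in KO2, 761 in WT1 and 717 in WT2, where a UMI of Mki67 or Top2a was seen in 2.89% of 173 cells. Cenpa, the histone H3 variant of centromeres, reached 232 ± 39.0 CPM in NK cell-like cells (n = 5) and 184 ± 57.6 CPM in monocyte-like cells (n = 5). Pcna, which also serves DNA repair, was at 105, 106, 69.8, 106 and 110 CPM in luminal progenitor-like cells of KO1, KO2, KO3, WT1 and WT2, with no order by Mki67.

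How closely each gene follows division in single cells was read from cells with a UMI of Mki67 or of Top2a, the topoisomerase that untangles replicated DNA. These 2 genes define the cells, so their own values are left out. Cells of all classes were pooled within each library, so the ratios also carry differences in class make-up. Cenpa, for example, had a mean of 232 CPM in NK cell-like and 6.90 CPM in fibroblast-like cells. Hmmr, a spindle protein, was 250 times more abundant in these cells than in other classed cells (median of the libraries' ratios of CPM, range 66.3 to 392). Pclaf reached 154 times (59.9 to 429), Pbk 117 times and Ccna2 94.1 times. The other classed cells were near 0 for these genes, with Hmmr at 0.0638 to 0.263 CPM by library and Pclaf at 0.298 to 1.54. The size and order of these high ratios are thus uncertain. The median over the other 17 mitotic genes was 54.1 and over the 13 replication genes 5.09.

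At the low end stood Pcna at 1.84 times (1.55 to 2.19), the cyclin E gene Ccne1 at 2.43, the spindle kinase Aurka at 4.15 and Cenpa at 4.81 (3.94 to 8.08). Rrm2 (26.8) and Mcm5 (10.8) lay between. Cells with a Mki67 or Top2a UMI were also deeper in 4 of 5 libraries (median 17419 against 13732 UMIs in KO2), and in KO1 shallower (4509 against 4794). In KO1 and WT1, 62.7% and 51.9% of them held no UMI of any other mitotic gene, against 34.8% in KO2, 39.4% in KO3 and 30.2% in WT2.

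**Figure D2:**
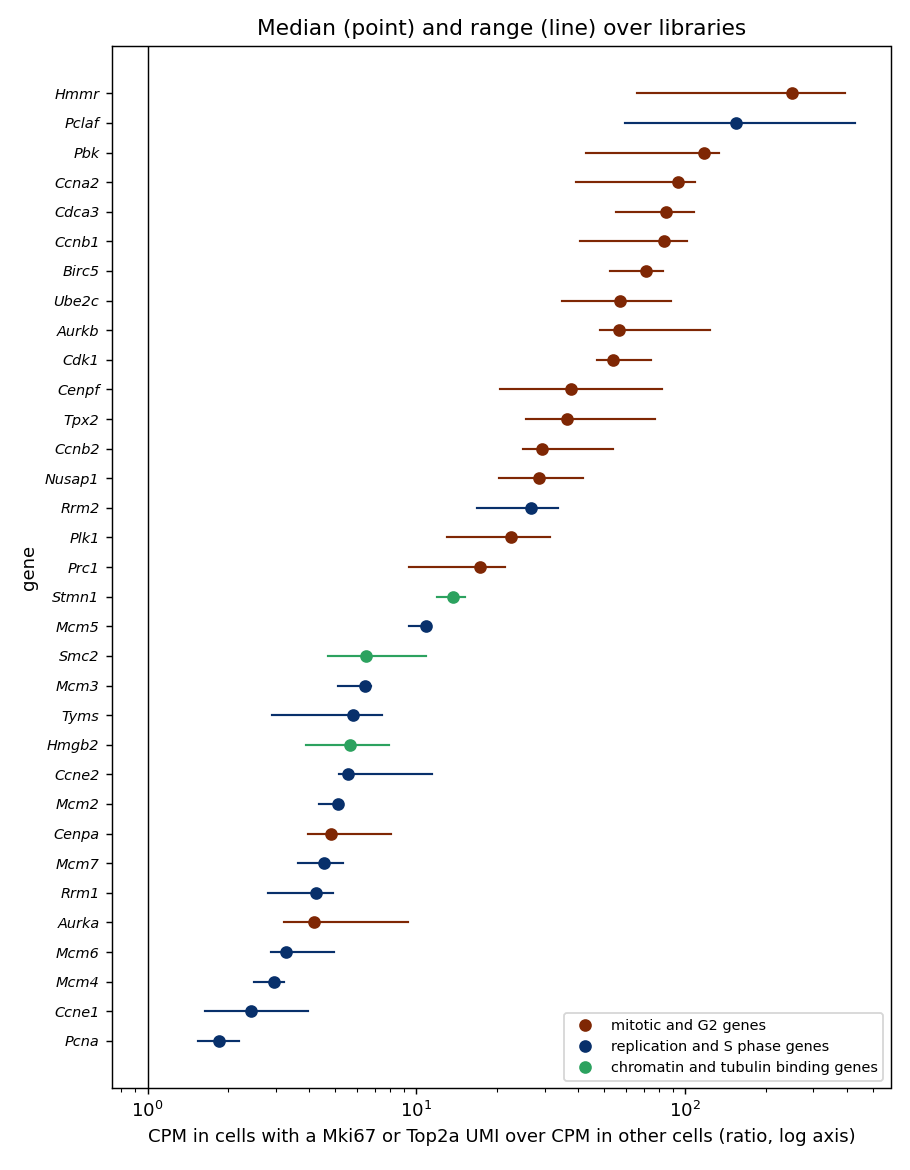
Ratio of CPM in cells with a Mki67 or Top2a UMI to CPM in other classed cells (log axis), as the median over libraries (point) and range (line) for 33 genes. Mitotic genes gather at high ratios around 54.1, and Pcna stands last at 1.84.

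The share of cells with a UMI of Mki67 or Top2a was also taken by class. With Cenpa counted it did not follow the mitotic CPM everywhere: B cell-like cells had a mean share of 4.94% and endothelial-like cells one of 15.5%, in reverse of their mitotic CPM. Without Cenpa these CPM were 86.0 and 124, in the order of the shares. The endothelial-like share was 35.3% in KO2 and 4.84% to 24% in the other libraries. In T cell-like cells it was 8.51% in KO1 (95% exact Clopper-Pearson interval 5.73 to 12.1), 26.8% in KO2, 29.6% in KO3, 19.05% in WT1 and 20.8% in WT2. In NK cell-like cells it was 18.0%, 24.8%, 23.7%, 17.9% and 18.6% in the same order. As background, 0 of 169 Schwann/glial-like cells (median 4972 UMIs) held a Mki67 UMI, which allows a share of cells with a UMI of up to 1.78% (3 cells of 169; the exact 95% upper bound is 2.16%), and 3 held a Top2a UMI. Intervals cover counting error only.

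Detection of several mitotic genes in 1 cell was also counted. Cells with UMIs of at least 4 of the 19 mitotic genes numbered 59 in KO1, 187 in KO2, 90 in KO3, 47 in WT1 and 273 in WT2. Of them, 1.69%, 38.5%, 25.6%, 8.51% and 24.5% in that order were hormone-sensing luminal-like, while that class was 2.36%, 28.6%, 6.099%, 11.0% and 13.3% of the kept cells. Its share of these cells was thus above its share of kept cells in KO2, KO3 and WT2 and below it in KO1 and WT1. Cells in no class were 27.1%, 12.8%, 10%, 36.2% and 19.4% of the cells with at least 4 mitotic genes in that order. They were 13.1%, 13.8%, 11.4%, 13.3% and 13.8% of the kept cells. Their part in the levels of the classes was not tested. These counts are unthinned.

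**Figure D3:**
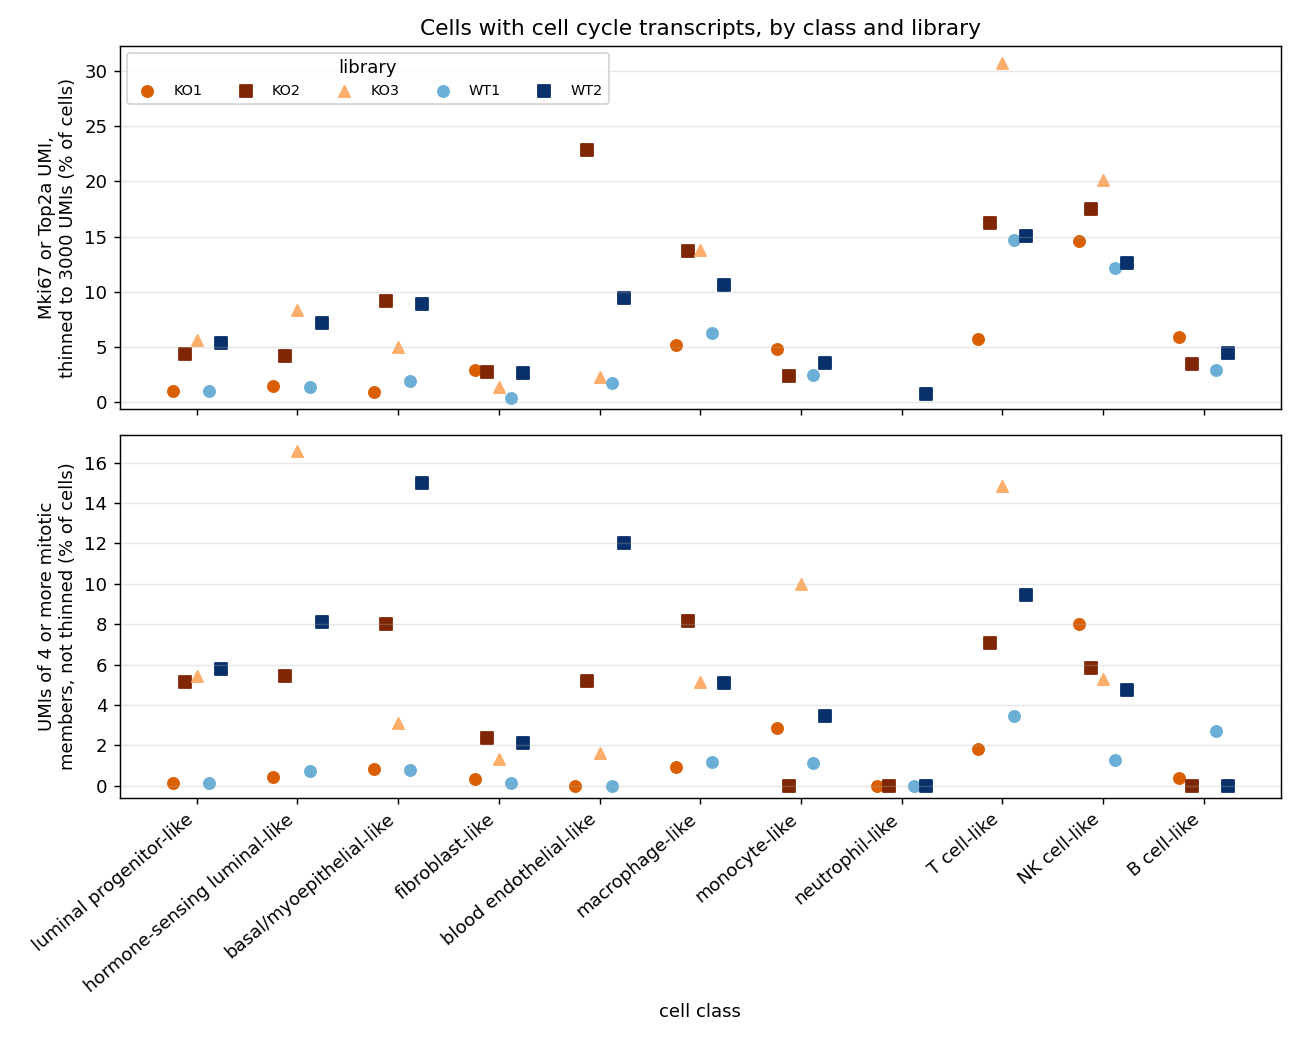
Share of cells (%) by class with a Mki67 or Top2a UMI after thinning each cell to 3000 UMIs (top; at least 20 cells deep enough) and with UMIs of at least 4 of the 19 mitotic genes without thinning (bottom), 1 point per library (circles replicate 1, squares replicate 2, triangles KO3). Cells with fewer than 3000 UMIs are left out of the top panel. In luminal progenitor-like cells KO1 and WT1 lie near 1% in the top panel and the other 3 libraries at 4.35% to 5.66%.

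Levels differed by replicate number in both genotypes, and this is described first for the epithelium. In luminal progenitor-like cells Mki67 was at 0.272 CPM in KO1, 34.0 in KO2, 26.3 in KO3, 0.811 in WT1 and 22.8 in WT2. Top2a was at 3.54, 27.4, 48.7, 2.20 and 17.4 CPM in that order. Both replicate 1 libraries were low and both replicate 2 libraries high, with no overlap, and KO3, the library with no wild-type counterpart, stood with replicate 2.

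The whole mitotic sum followed in these cells, at 24.9 CPM in KO1, 226 in KO2, 249 in KO3, 21.4 in WT1 and 152 in WT2. In KO3, 1 of its 55 cells held 49.2% of these UMIs, and without it the sum was 131 CPM. The replication sum spread less, at 183, 277, 320, 178 and 219 CPM. The share of cells with at least 4 mitotic genes was 0.131%, 5.15%, 5.45%, 0.1297% and 5.77%. After thinning to 3000 UMIs, 1.07%, 4.35%, 5.66%, 0.983% and 5.33% of the cells with at least 3000 UMIs kept a Mki67 or Top2a UMI (unthinned, over all cells of the class, 2.75%, 9.13%, 10.9%, 2.72% and 14.4%). Thinning left out the shallower cells, 98 of 764, 24 of 427, 6 of 55, 59 of 771 and 8 of 312. Median UMIs in this class were 9036, 12128, 8125, 9972 and 17615.

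Replicate 2 was then tested against replicate 1 over KO1, KO2, WT1 and WT2, with genotype in the model (edgeR's quasi-likelihood test on UMIs summed per library and class, Benjamini-Hochberg adjusted over all genes). The fit has 1 residual degree of freedom per gene before edgeR shares the spread across genes. In luminal progenitor-like cells 32 of the 35 genes passed the filter on low counts and 26 were called, all higher in replicate 2, beside 13.0% of all genes tested in either direction and 7.90% called higher. A gene near 0 in replicate 1 can pass that filter through replicate 2 alone, so these counts describe the genes measured and are not support by themselves.

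All 17 mitotic genes tested there were higher in replicate 2, with a median log2 difference of 3.77 where the median of all genes was near 0. Mki67 differed by 5.62 ± 0.35 (log2 ± SE, edgeR adjusted p = 3.13e-05) and Top2a by 2.99 ± 0.22 (edgeR adjusted p = 6.27e-05). Birc5, the survivin of the chromosomal passenger complex, stood at 0.681, 16.6, 14.5, 0.347 and 7.88 CPM in KO1, KO2, KO3, WT1 and WT2 and differed by 4.55 ± 0.36. Cdk1, the mitotic kinase, stood at 0.136, 9.58, 5.26, 0.232 and 4.50 CPM and differed by 5.08 ± 0.55. Its partner cyclin Ccnb2 stood at 0.681, 10.6, 2.63, 0.579 and 6.91 CPM and differed by 3.77 ± 0.39. In each of these genes both replicate 1 libraries lay below the other 3. Birc5, Cdk1 and Ccnb2 were near 0 in both replicate 1 libraries, so the size of their differences is uncertain. Nusap1, which binds spindle microtubules, stood at 0.681, 8.58, 19.7, 0.232 and 4.34 CPM. Tpx2, a spindle assembly factor, stood at 0.681, 8.72, 15.8, 0.232 and 4.02 CPM. Prc1, which bundles the central spindle, was also seen in replicate 1, at 8.30, 25.9, 31.6, 8.34 and 29.9 CPM.

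Of the replication genes in luminal progenitor-like cells, 6 of 12 tested were higher, with a median of 0.94. Pclaf, at 0.272, 23.3, 55.3, 0 and 11.3 CPM in KO1, KO2, KO3, WT1 and WT2, was higher in replicate 2 in the edgeR test (adjusted p = 4.36e-05). It had 2 UMIs in the replicate 1 libraries, so its size is given as a ratio of CPM over the pooled replicates, 141 (exact 95% interval 38.6 to 1170.4, counting error only). Mcm5, a helicase subunit, stood at 2.04, 14.0, 22.4, 1.97 and 8.20 CPM and differed by 2.45 ± 0.31, while Pcna (0.06, edgeR adjusted p = 0.740) and the helicase subunit Mcm6 (0.27, edgeR adjusted p = 0.326) did not pass. Hmgb2, Stmn1 and Smc2 all passed, Hmgb2 by 0.91 ± 0.11 and Stmn1 by 2.18 ± 0.25. Stmn1 stood at 25.04, 152, 163, 27.9 and 91.5 CPM, with replicate 1 again lowest. With each library left out in turn and no genotype term, 15 (without KO2) to 24 (without WT2) were called, 18 without KO1 and 17 without WT1. No share of all genes called is given for these left-out fits. Summed CPM of 8 leukocyte genes in the class were 60.4, 13.7, 31.6, 164 and 99.1, and 5 of the 8 were lower in replicate 2. Their part in the difference was not tested.

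**Figure D4:**
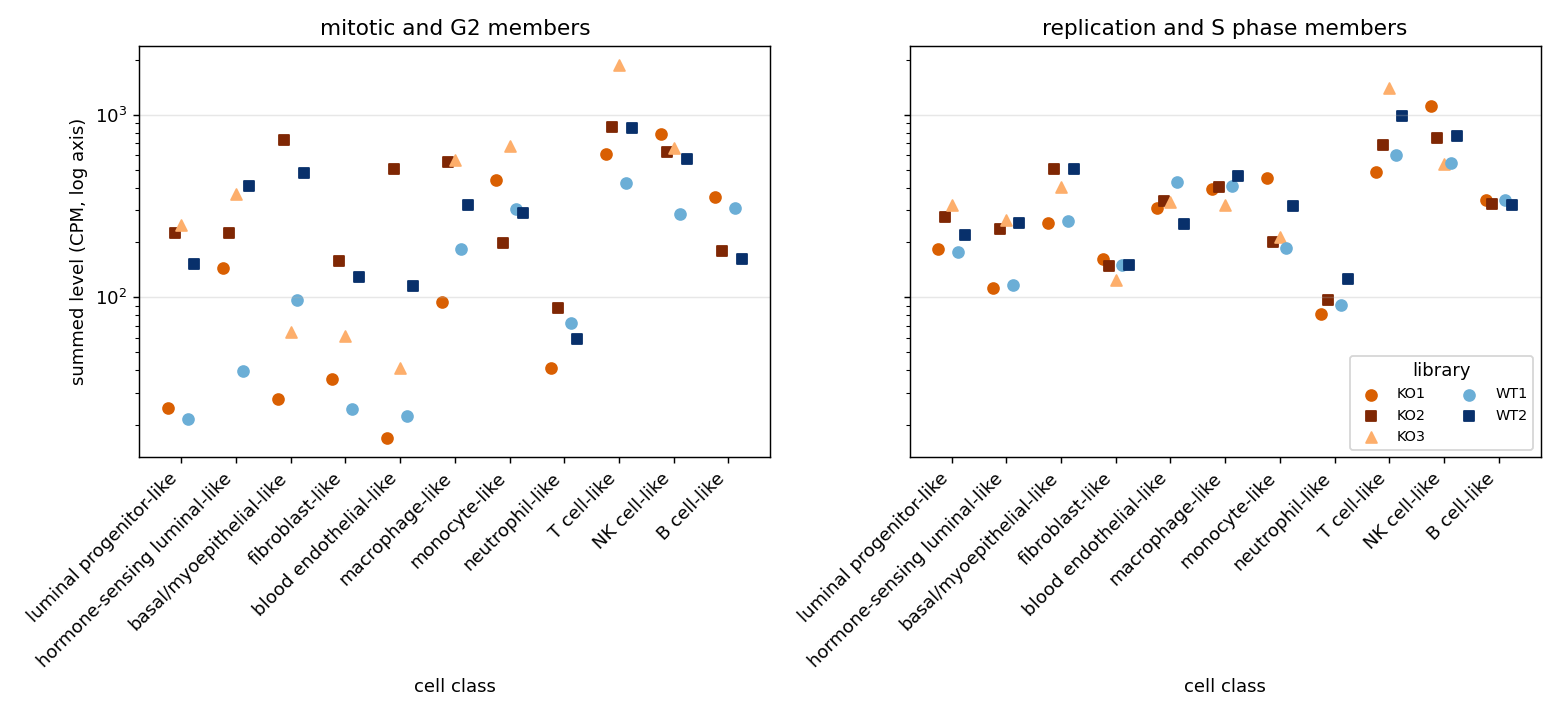
Summed level (CPM, log axis) of the 19 mitotic genes (left) and the 13 replication genes (right) by class, 1 point per library. The mitotic sum of luminal progenitor-like cells spans 21.4 to 249 CPM and the replication sum 178 to 320 CPM.

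In hormone-sensing luminal-like cells most of the genes called were replication genes. Of 35 genes tested, 17 were higher in replicate 2 and none lower, beside 25.1% of all genes called and 13.8% called higher. These were 11 of 13 replication genes, 4 of 19 mitotic genes (Tpx2, Prc1, Pbk and Aurka) and 2 of 3 of the third group. The replication sum was 113 CPM in KO1, 237 in KO2, 266 in KO3, 116 in WT1 and 254 in WT2, so replicate 1 lay below the rest. Mcm4, at 6.95, 22.1, 16.6, 10.1 and 24.4 CPM in KO1, KO2, KO3, WT1 and WT2, differed by 1.38 (edgeR adjusted p = 9.80e-06) and Hmgb2 by 1.13 ± 0.12 (edgeR adjusted p = 9.84e-07).

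The mitotic sum in that class was 145, 225, 366, 39.7 and 409 CPM. A single cell held 86.2% of the mitotic UMIs of this class in KO1, and without it the sum was 20.3 CPM. Leaving out the cell with the most mitotic UMIs in each library, an alternative added after the data were seen, raised the genes called from 17 to 33. The share of all genes called is not given for this alternative or the next, so these counts only describe the genes measured. Without KO1 and with no genotype term 26 were called. Mki67, at 8.90, 18.2, 37.9, 3.94 and 36.4 CPM, did not pass in the full data (2.19 ± 0.93, edgeR adjusted p = 0.379).

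Basal-like cells, the contractile outer layer of the ducts, were few, with 119, 25, 32, 132 and 60 cells in KO1, KO2, KO3, WT1 and WT2. Of 30 genes tested, 24 were higher in replicate 2 (9.96% of all genes called, 4.88% higher), among them 16 of 16 mitotic genes. The KO1 cells held 25 mitotic UMIs in all. Here too a gene can pass the filter on low counts through replicate 2 alone. These counts thus describe the genes measured and are not support by themselves. Mki67 was at 1.12, 64.4, 23.2, 7.62 and 93.4 CPM and differed by 3.91 ± 0.41. Counts here depended on the method: DESeq2 called 6, the stricter class rule left 14, leaving out the top mitotic cell left 15, and leaving out 1 library with no genotype term left 14 (without WT2) to 18 (without WT1). No share of all genes called is given for these alternatives. A single cell held 88.2% of the mitotic UMIs of WT1.

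In fibroblast-like cells most of the genes called were mitotic. Of 35 genes tested, 16 were higher in replicate 2 (8.30% of all genes called, 4.41% higher): 14 of 19 mitotic genes, 1 of 13 replication genes (Pclaf) and Stmn1. Mki67 was at 3.43, 18.6, 6.97, 1.83 and 15.6 CPM in KO1, KO2, KO3, WT1 and WT2 and differed by 2.87 ± 0.19 (edgeR adjusted p = 0.00391). The replication sum was 161, 148, 125, 151 and 151 CPM. With KO2 or WT2 left out and no genotype term, 0 of the 35 were called in this class. Without the cell with the most mitotic UMIs in each library 14 were called, and Mki67, Top2a, Cdk1, Cenpf and Cdca3 were no longer among them. In WT1, 1 cell held 53.3% of the mitotic UMIs of the class. With fibroblast-like cells holding Epcam or Ptprc UMIs left out, 22 were called. The share of all genes called is not given for these alternatives, so their counts only describe the genes measured. The thinned share of KO1 in this class, 2.94%, left out 1992 of 6486 cells as too shallow. It went against the low mitotic CPM of KO1, 35.9, and no order is read from it.

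Mitotic sums of leukocytes were lower in replicate 1 in some classes and higher in others, and few genes were called. In macrophage-like cells the sum was 94.6, 550, 563, 184 and 320 CPM in KO1, KO2, KO3, WT1 and WT2. In T cell-like cells it was 610, 862, 1887, 426 and 847 CPM, and in NK cell-like cells 789, 623, 662, 285 and 575 CPM. Replicate 1 was lower in both genotypes in macrophage-like and T cell-like cells and in the WT pair alone in NK cell-like cells. In monocyte-like cells the sum was 440, 198, 672, 307 and 292 CPM in the same order. In B cell-like cells it was 356, 179, 310 and 163 CPM in KO1, KO2, WT1 and WT2. Replicate 1 was thus higher in both genotypes in these classes. Neutrophil-like cells had 40.8, 87.6, 72.5 and 58.8 CPM in KO1, KO2, WT1 and WT2, with no shared direction. In T cell-like cells 0 of 31 genes tested passed in edgeR (background 0%) and 0 in DESeq2, with 9 at an unadjusted p under 0.05, and Mki67 differed by 0.53 (edgeR adjusted p = 0.776). In macrophage-like cells 0 of 23 passed in edgeR (background 0.0218%), the unadjusted p was below 0.05 for 14 and 2 passed in DESeq2, while Mki67 stood at 2.33 ± 0.33 (edgeR adjusted p = 0.0565). In NK cell-like cells 0 of 21 passed in edgeR (0.441%, higher 0.169%) and 0 in DESeq2, with Ube2c at an unadjusted p under 0.05. In monocyte-like cells 0 of 5 passed in edgeR (0.547%, higher 0.488%) and in neutrophil-like cells 0 of 1 (3.61%, higher 2.82%), with 0 at an unadjusted p under 0.05 and 0 in DESeq2. Endothelial-like cells had 1 of 5 called, Top2a, at 11.3, 147, 8.24, 0 and 41.9 CPM (9.10% of genes called, 4.46% higher). That call was lost with the stricter cell filter and, with no genotype term, without KO1, without KO2 and without WT1. B cell-like cells had 1 of 13, Mki67, which was lower in replicate 2 at 39.1, 0, 32.3 and 3.64 CPM in KO1, KO2, WT1 and WT2 (2.57%). That B cell-like call was lost with DESeq2, with the stricter class rule and without the top mitotic cell.

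**Figure D5:**
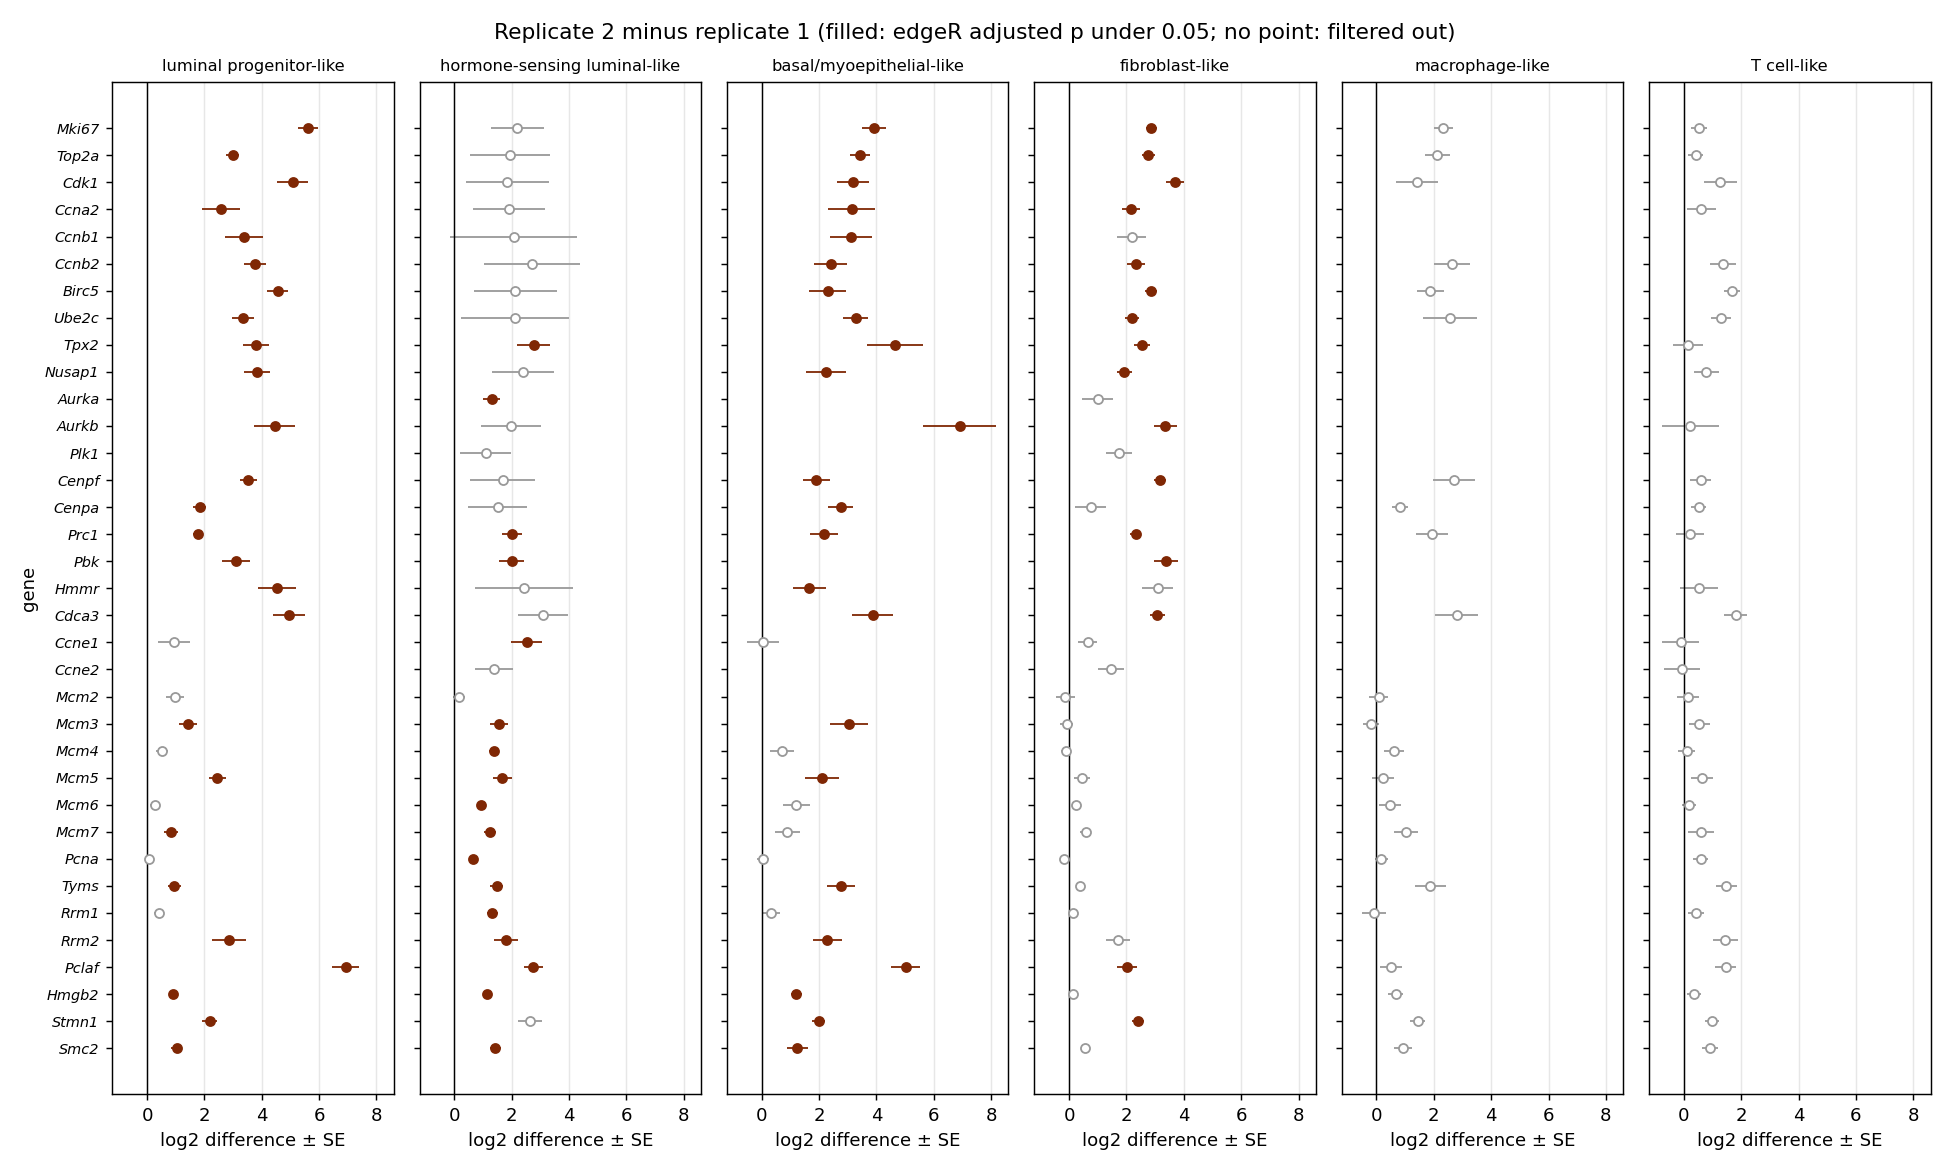
Log2 difference of replicate 2 over replicate 1 (± SE) for each gene in 6 classes, from KO1, KO2, WT1 and WT2. Filled points passed an edgeR adjusted p of 0.05. Called genes fill the luminal progenitor-like and basal-like panels, and the T cell-like and macrophage-like panels hold none.

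The gap between classes was itself tested for luminal progenitor-like cells. Against T cell-like cells the replicate difference was larger for Mki67 by 5.06 ± 0.59 on the log2 scale (edgeR adjusted p = 0.00510), and Top2a, Cenpf and Birc5 also passed (background 0.214%, higher 0.132%). Against macrophage-like cells Mki67 and Pclaf passed (1.11%), and against fibroblast-like cells only Pclaf did (1.67%). Leaving out the cell with the most mitotic UMIs in each library left 1, 1 and 0 of these calls: Cenpf against T cell-like cells and Mki67 against macrophage-like cells. These comparisons were added after the data were seen.

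Over luminal progenitor-like, hormone-sensing luminal-like, basal-like and fibroblast-like cells, 3 genes were called higher in all 4 classes (Tpx2, Prc1 and Pclaf) and 19 in 3 classes. Ccne2 and Mcm2 were called in none. Plk1 was not tested in luminal progenitor-like or basal-like cells and was not called in the other classes. Several other genes also went untested in luminal progenitor-like or basal-like cells, so a missing call there is not always a negative result. No matching share of all genes stands beside these overlaps, so they describe the genes measured and are not support by themselves. Over all kept cells, replicate number moves with depth, with the mitochondrial share in KO2, and with anything that differed between the preparations of the libraries, and these cannot be told apart. In hormone-sensing luminal-like cells replicate 2 was the shallower one, with median UMIs of 18817 in KO1, 16153 in KO2, 24340 in WT1 and 21124 in WT2. The part of depth was not tested. The labels do not say what a replicate number marks.

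Other genes of the cell cycle, from a list of 30 S phase genes and one of 32 G2 and mitosis genes, 31 of which the tables hold, were counted in the same fits. In luminal progenitor-like cells 17 of 23 G2 and mitosis genes tested and 8 of 28 S phase genes were higher in replicate 2, beside 7.90% of all genes. In hormone-sensing luminal-like cells these were 20 of 31 and 19 of 29 (13.8%), and in basal-like cells 12 of 15 and 5 of 15 (4.88%). In fibroblast-like cells they were 14 of 31 and 2 of 30 (4.41%), where the S phase count is near the share of all genes. In T cell-like cells none of 21 and none of 25 passed, and neither did any other gene tested (0%). Here too a gene can pass the filter on low counts through replicate 2 alone.

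Between genotypes no gene of the 35 passed in any of the 11 classes tested (edgeR, and 0 with DESeq2; background 0% in every class except macrophage-like cells, where it was 0.0111%). In luminal progenitor-like cells 32 genes were tested. The libraries labelled KO differed from those labelled WT by 0.70 ± 1.87 for Mki67 and by 1.22 ± 1.35 for Top2a on the log2 scale, where the KO libraries spanned 0.272 to 34.0 CPM for Mki67 and the WT libraries 0.811 to 22.8 CPM. The unadjusted p was under 0.05 for Stmn1 in endothelial-like cells, for Cenpf in T cell-like cells, and for 5 genes in NK cell-like cells (Nusap1, Smc2, Rrm1, Mki67 and Top2a, the last 2 by 0.99 and 0.84). Without a filter on low counts Pclaf and Top2a in luminal progenitor-like cells and Cenpf in T cell-like cells passed. Without WT2 Mki67 passed in NK cell-like cells, and without KO2 Mki67 and Top2a passed in B cell-like cells. In data simulated from these libraries the same test recovered 77.5% of 4-fold and 12.5% of 2-fold changes in luminal progenitor-like cells when the spread followed the trend over genes, and 66.5% and 0.5% when each gene kept its own estimated spread. In fibroblast-like cells it recovered 62% and 0%, and 50% and 0%, in that order. The changed genes were 200 drawn at random from all genes tested (12014 in luminal progenitor-like cells). These rates are thus not those of the 35 genes, among which Mki67 had a standard error of 1.87.

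The share of cells with a Mki67 or Top2a UMI was compared between genotypes by an exact two-sided permutation test in each class. With 3 libraries against 2 the smallest p possible is 0.1, so the test cannot pass. Shares were 7.60% ± 4.29 in KO and 8.57% ± 8.27 in WT in luminal progenitor-like cells, 14.1% ± 8.33 and 12.2% ± 8.14 in hormone-sensing luminal-like cells, and 21.6% ± 11.5 and 19.9% ± 1.21 in T cell-like cells (SD, n = 3 and n = 2). In NK cell-like cells they were 22.2% ± 3.65 and 18.3% ± 0.483 (SD, exact permutation p = 0.3).

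The 2 luminal classes were compared within libraries. Relative to hormone-sensing luminal-like cells, 9 of 33 genes differed in luminal progenitor-like cells, against a background of 53.7% of all genes, so the share called is below that of all genes. Pcna (0.94), Hmgb2 (0.70) and Stmn1 (0.65) were higher on the log2 scale. Of the 8 leukocyte genes, 4 were also higher in luminal progenitor-like cells, with a median of 1.17. Their summed CPM were 60.4, 13.7, 31.6, 164 and 99.1 there and 19.98, 14.6, 38.3, 27.0 and 51.5 in hormone-sensing luminal-like cells, and their part was not tested. Aurka was lower by 3.12 ± 0.31 (edgeR adjusted p = 0.000103), at 0.408, 1.29, 1.32, 0.116 and 0.643 CPM in luminal progenitor-like and 3.69, 6.80, 13.6, 2.63 and 8.51 CPM in hormone-sensing luminal-like cells, so it was lower in each of the 5 libraries. Ube2c, the ubiquitin-conjugating enzyme of the anaphase-promoting complex, was at -2.05, Cdk1 at -1.93, Cenpf at -1.48, Cdca3 at -1.18 and the helicase subunit Mcm2 at -0.78. Of the other cell cycle genes, 10 of 28 S phase genes were higher and 2 lower, and 1 of 27 G2 and mitosis genes was higher and 5 lower. DESeq2 called 14. The count of 9 went to 4 without WT1 and to 17 without KO2.

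T cell-like and NK cell-like cells were compared in the same way. Of 22 genes tested, 6 passed, against 18.5% of all genes. Ube2c was higher in T cell-like cells by 1.93 (edgeR adjusted p = 4.22e-05), and Cenpf (1.76), Birc5 (1.5), Nusap1 (0.98) and Hmgb2 (0.63) were higher as well. Ube2c stood at 42.4, 78.3, 192, 15.5 and 56.2 CPM in T cell-like cells and at 3.32, 26.2, 48.1, 0 and 19.9 CPM in NK cell-like cells of KO1, KO2, KO3, WT1 and WT2. Mcm6 was lower in T cell-like cells by -0.62 (edgeR adjusted p = 0.00934), at 55.7, 62.3, 117, 85.2 and 102 CPM against 129, 127, 118, 133 and 157 CPM. Mki67 did not pass. The count of 6 was 3 without the cell with the most mitotic UMIs per library, 2 without WT2 and 12 without KO1.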

How the data were processed

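Mammary tissue was profiled in 5 libraries. The deposited values are UMI counts per gene and barcode, made by the authors with Cell Ranger 6.0.2 (KO3: 6.1.2), per the file headers, on mm10, per the submitters' processing notes. The annotation release is not given in the sources used here, nor is the rule that called cells. The 35 genes, the gene lists and the class rule were chosen with earlier results of these data known.

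Of 32472 barcodes, 28588 were kept (at least 500 genes, at most 15% mitochondrial UMIs). Total UMIs were 74947873 in KO1, 66053067 in KO2, 24197344 in KO3, 55783468 in WT1 and 87577099 in WT2, and precision falls with the cells of a class. A cell joined a class when its marker score (markers as log values per 10000 UMIs, scaled by the 90th percentile of positive cells) reached 0.3, at least 3 markers were detected and the score was 1.5 times the next class. These limits were set after the data were seen. Cells between classes, doublets among them, stay unassigned, and no doublet caller was run. Genes are named by this rule: all 35 are accounted for, with values by library for Mki67, Top2a and some of those that passed a test. Of the many that passed between replicates, the text prints values by library for some and gives the rest as counts.

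Counts were summed per library and class (at least 20 cells) and tested with edgeR 4.0.16 (limma 3.58.1, R 4.3.3; TMM, filterByExpr, quasi-likelihood, adjusted p under 0.05), each class alone. DESeq2 1.42.0, no filter, stricter class and cell rules, left-out libraries and a replicate block were alternatives. Standard errors are the log2 difference over the square root of F. The steps were tested on simulated data. For replicate 2 against replicate 1, some calls there fell on unchanged genes. With each gene's own spread these were 32.9% (2-fold) and 20.3% (4-fold) of calls in fibroblast-like cells. They were 9.49% and 12.3% in luminal progenitor-like cells, and 10% and 3.31% in hormone-sensing luminal-like cells. With spread on the trend they were 7.69% and 4.03%, 5.81% and 3.59%, and 0% and 2.70% in that order. p-values measure the spread between libraries, and nothing ties each to 1 mouse.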

Additional observations from a re-analysis of the deposited data

Results flagged for a closer look

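In 7 instances the difference between replicate 2 and replicate 1 was itself different between luminal progenitor-like cells and another class (edgeR interaction test, Benjamini-Hochberg adjusted over all genes). The values are the log2 difference in luminal progenitor-like cells minus that in the other class. Against T cell-like cells they were 5.06 for Mki67 (edgeR adjusted p = 0.00510), 2.56 for Top2a (edgeR adjusted p = 0.00510), 3.02 for Cenpf (edgeR adjusted p = 0.0222) and 2.83 for Birc5 (edgeR adjusted p = 0.0301). Against macrophage-like cells they were 3.28 for Mki67 (edgeR adjusted p = 0.00349) and 6.06 for Pclaf (edgeR adjusted p = 0.0378). Against fibroblast-like cells the value was 5.01 for Pclaf (edgeR adjusted p = 0.0458). Pclaf had 2 UMIs in the luminal progenitor-like cells of the replicate 1 libraries, so the size of its 2 values is uncertain. Without the cell with the most mitotic UMIs in each library 5 of the 7 no longer passed, and Cenpf against T cell-like cells and Mki67 against macrophage-like cells did.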

How the results depend on the processing

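Counts are of genes among the 35 called, summed over the classes tested. The shares of all genes given above belong to the main fits. Counts under an alternative, here and above, thus have no such share beside them and only describe the genes measured. Between genotypes the count was 0, 3 without a filter on low counts, and 0 to 2 with each library left out in turn. The replicate 2 against replicate 1 count was 85, and 52 to 102 with each library left out and no genotype term. The luminal comparison gave 9, 14 with DESeq2 and 4 to 17 with each library left out. The T cell-like against NK cell-like comparison gave 6, 12 without a filter, 3 without the cell with the most mitotic UMIs per library, and 2 to 12 with each library left out. Values of called genes that lost their call under an alternative numbered 138 of those for replicate number, 24 for the luminal pair, 8 for the lymphoid pair and 5 for the differences between classes, and none of these reversed.

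The KO minus WT share of cells with a Mki67 or Top2a UMI changed sign in luminal progenitor-like cells after thinning (0.54 percentage points) and with UMIs of both genes (1.23), and in B cell-like cells with both genes (-0.0184). With each library left out the share difference ran from -6.83 to 4.87 in luminal progenitor-like, -3.91 to 7.60 in hormone-sensing luminal-like, -11.3 to 5.79 in basal-like, -1.98 to 3.66 in fibroblast-like, -8.14 to 10.9 in endothelial-like, -2.91 to 4.41 in macrophage-like, -2.76 to 5.35 in neutrophil-like and -2.27 to 8.29 in T cell-like cells. Mki67 in luminal progenitor-like cells went from 0.70 to -0.66 without KO2 to -0.28 without WT1 and to 4.53 without WT2. The cause was not tested.

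Only 2 pairs of libraries share a replicate number, and nothing says the number pairs mice. With the number as a replicate block the genotype count stayed 0, and the share difference was -2.62 in hormone-sensing luminal-like and -2.27 in T cell-like cells. Deviations of same-numbered libraries from their genotype mean correlated at 0.421 and 0.503 over genes in luminal progenitor-like cells and at 0.0125 and 0.107 in T cell-like cells. With only 2 WT libraries, their deviations mirror each other, so KO1 against WT2 gave -0.421 and -0.0125 in these classes. The 2 values of a class are thus not independent, and they do not show whether the number pairs mice.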
